A study of Mus musculus with 12 samples.

Results

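Adipose stroma is not uniform. Adipocyte progenitors range from interstitial cells that lie in the connective tissue around the fat to committed preadipocytes, which carry the adhesion molecule ICAM-1 and stand closer to becoming adipocytes. A further set of stromal cells, marked by tissue factor (F3, also known as CD142), has been described as regulatory because these cells restrain the differentiation of their neighbours. The genes reported here are 7 markers of these populations: Icam1 for committed preadipocytes, and F3, Fmo2, Clec11a, Gdf10, Apod and Bmper for regulatory stroma. They were picked by name, and all 7 were found among 55535 genes, each as a single row.

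The genes were read in the stromal vascular fraction (SVF), the cells left when lipid-filled adipocytes are removed, of inguinal white fat from male mice of a mixed C57BL6/J-129SV strain held at room temperature. The labels speak of primary cells from adipose tissue and the study of SVF, while its sequencing methods name RNA of the inguinal depot. There were 12 libraries of polyadenylated RNA in 3 groups of 4: controls aged 2 months, controls aged 12 months, and Pdgfrβ-KO mice aged 12 months. GEO's labels give the controls as wild type, while the study's methods describe controls that carry Sma-CreERT2 and a reporter. In the Pdgfrβ-KO mice a Cre under the smooth muscle actin promoter, switched on by tamoxifen, deletes floxed Pdgfrb, the gene of a PDGF receptor, so cells of the SVF that never used that promoter keep the gene. The study describes the sequenced Pdgfrβ-KO mice as tamoxifen-induced and compares them with the 12-month controls of its age comparison. It does not state there whether those controls had tamoxifen, so such a difference could not be told apart from genotype. Each library is labelled as a biological replicate, and p-values measure the spread between these libraries. Values are normalized counts, that is, reads per gene after division by a size factor of the library. They summed to 19.6 to 21.9 M per library, and the counts before division had an estimated median of 24.55 M in 2-month controls, 23.25 M in 12-month controls and 16.25 M in the Pdgfrβ-KO group. Between 22406 and 24256 genes were above 0 in the Pdgfrβ-KO libraries, and between 24120 and 25050 in the controls. Pdgfrb itself stood at 2536, 2367, 2349 and 2407 at 2 months, at 3000, 4380, 3258 and 2399 in 12-month controls, and at 1882, 2145, 1707 and 1749 in the Pdgfrβ-KO libraries, which lay below every control (log2 fold change -0.77 against age-matched controls, standard error 0.166, adjusted p = 0.0161).

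Clec11a and Apod had the largest changes with age among the 7 genes, in opposite directions, and both were also called in Pdgfrβ-KO. The Pdgfrβ-KO call held under all 19 alternatives for Clec11a, but under only 10 of 19 for Apod. At 12 months Clec11a, which encodes a secreted lectin-domain growth factor also called osteolectin, was 3.34-fold lower than at 2 months, and in 12-month Pdgfrβ-KO libraries it was 2.44-fold higher than in controls of that age. Apod, which encodes apolipoprotein D, a lipocalin that binds small lipids, was 2.51-fold higher at 12 months and 1.43-fold lower in Pdgfrβ-KO. Gdf10 fell and Bmper rose with age. Icam1 and F3 passed the test in none of the 3 comparisons as deposited, though some alternatives called them.

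On GRCm38 (GENCODE vM21) the genes lie apart, except that Icam1 and Bmper share a chromosome. Icam1 lies at chr9:21015985-21028817 (+), Bmper at chr9:23223076-23485200 (+), F3 at chr3:121723537-121735048 (+) and Fmo2 at chr1:162874317-162898726 (-). Clec11a lies at chr7:44302687-44306902 (-), Gdf10 at chr14:33923587-33937983 (+) and Apod at chr16:31296192-31314808 (-). Bmper is the longest, at 262125 bases, and Clec11a the shortest, at 4216. The only annotated gene that overlaps any of them is Gm47079, antisense to an exon of Icam1, whose value was at most 11 in any library.

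The promoters of Clec11a and Apod are shown because these genes were called in every comparison. Each is the 250 bases before the start of the RefSeq transcript (GRCm38.p6), read 5′ to 3′ on the strand of the gene, at chr7:44306960-44307209 (-) for Clec11a and chr16:31314809-31315058 (-) for Apod. Capitals mark matches, on either strand, to the motifs searched.
Clec11a: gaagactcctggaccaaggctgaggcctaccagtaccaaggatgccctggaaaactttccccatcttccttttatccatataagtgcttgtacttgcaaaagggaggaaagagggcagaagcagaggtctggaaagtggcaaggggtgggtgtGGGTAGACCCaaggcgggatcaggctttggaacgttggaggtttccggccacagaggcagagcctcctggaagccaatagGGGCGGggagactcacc
Apod: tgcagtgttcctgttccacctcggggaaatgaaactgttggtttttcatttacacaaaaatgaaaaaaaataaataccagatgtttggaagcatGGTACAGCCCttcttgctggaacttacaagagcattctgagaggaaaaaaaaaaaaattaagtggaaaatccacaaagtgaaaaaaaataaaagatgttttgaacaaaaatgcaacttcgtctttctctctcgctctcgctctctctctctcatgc
The Clec11a window holds an NF-kB match (GGG, any 5 bases, then CC) from -97 to -88, which reads as a match on both strands, and a GC box (GGGCGG) from -17 to -12. The Apod window holds a single NF-kB match, from -156 to -147, and no GC box. Base composition set them apart, with 55.6% G and C in Clec11a and 36.4% in Apod, against a median of 52.4% over 32536 promoters. Of the other members, F3 has a pair of AP-1 matches (TGANTCA), ending at -140 and -129, and Icam1 has a STAT match (TTCNNNGAA) from -42 to -34. Gdf10 has 4 GC boxes, of which the last pair share a base, and neither of the windows listed for Fmo2 holds a match. Of all promoters of this length, 46.0% hold the NF-kB letters, 33.0% the GC box, 6.73% the AP-1 letters, 7.04% the STAT letters and 12.3% the TATA box (TATAAA), which no member holds. A match is a description of the letters, not a site shown to be used.

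In 12-month against 2-month controls, 4 of the 7 genes passed the test (limma, adjusted p under 0.05), with Apod and Bmper higher and Clec11a and Gdf10 lower. Of 16398 genes tested, 22.7% were called. In the same 4 genes no library of 1 age reached the range of the other, as was so for 24.8% of all genes tested. In Pdgfrβ-KO against controls at 12 months 2 genes passed, Clec11a higher and Apod lower, against 9.41% of 16343 genes. These were also the 2 genes without overlap, as were 17.1% of all genes tested. In 12-month Pdgfrβ-KO against 2-month controls 5 genes passed, Apod and Bmper higher and Fmo2, Clec11a and Gdf10 lower, against 46.1% of 16959 genes, and the same 5 did not overlap, against 39.8%. The 7 genes were chosen with earlier results known, so these counts describe them only. The median log2 difference of the 7 was 0.10, -0.28 and -0.22 in the 3 comparisons, beside -0.01, -0.01 and -0.02 over all genes tested. The 3 comparisons share libraries and are set side by side, not as separate evidence. In SVF RNA, fewer cells that use a gene and less of its RNA in each cell cannot be told apart.

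**Figure D1:**
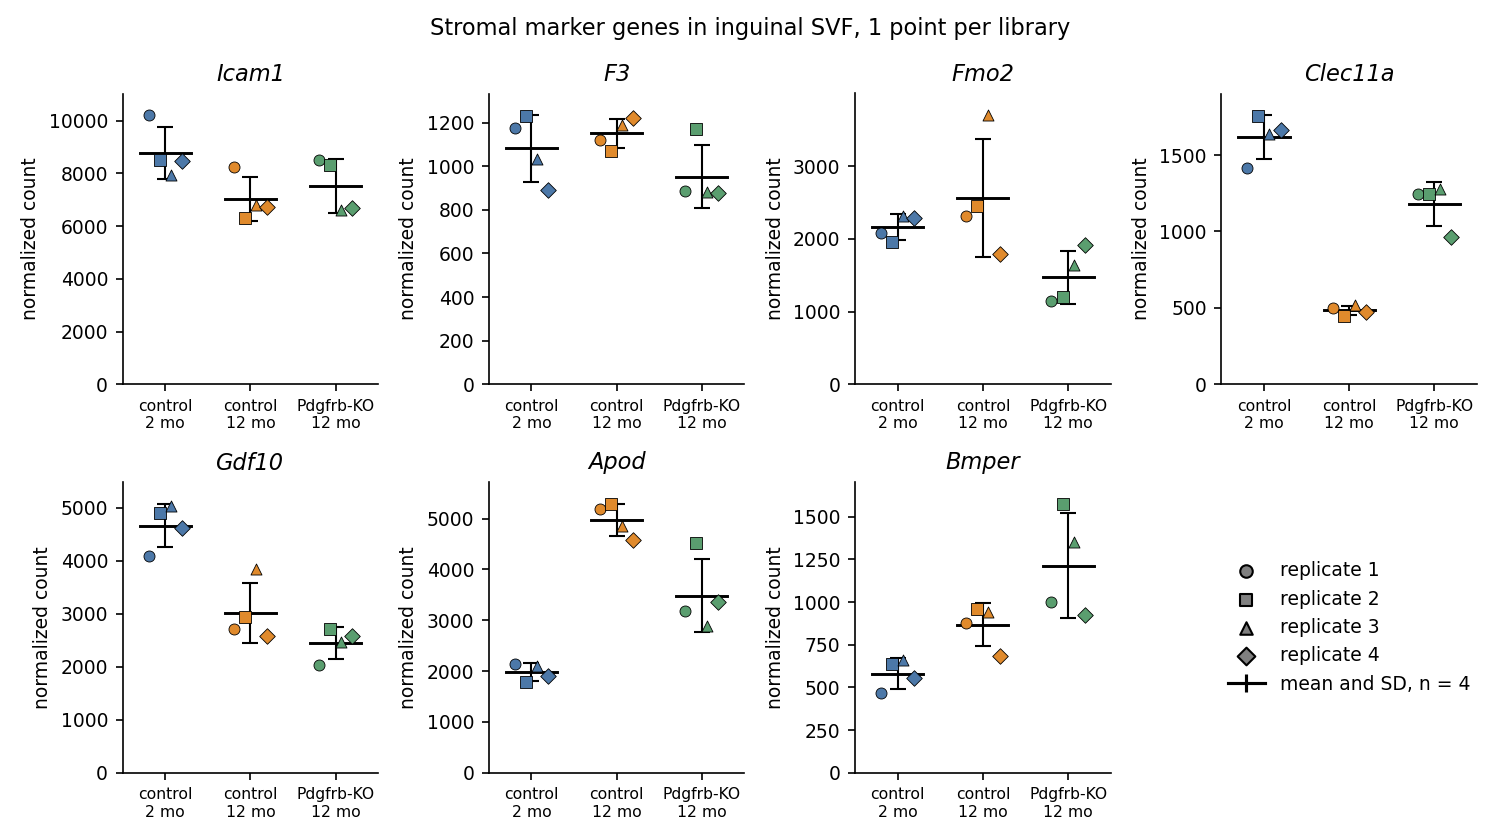
Normalized counts (vertical axes, from 0) of the 7 genes in the 3 groups, with each point a library, its shape the replicate number, and bars the mean and SD (n = 4). Clec11a lies at 447 to 516 in 12-month controls, below all libraries of the other groups, and Apod lies at 4584 to 5285 there, above all of them.

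**Figure D2:**
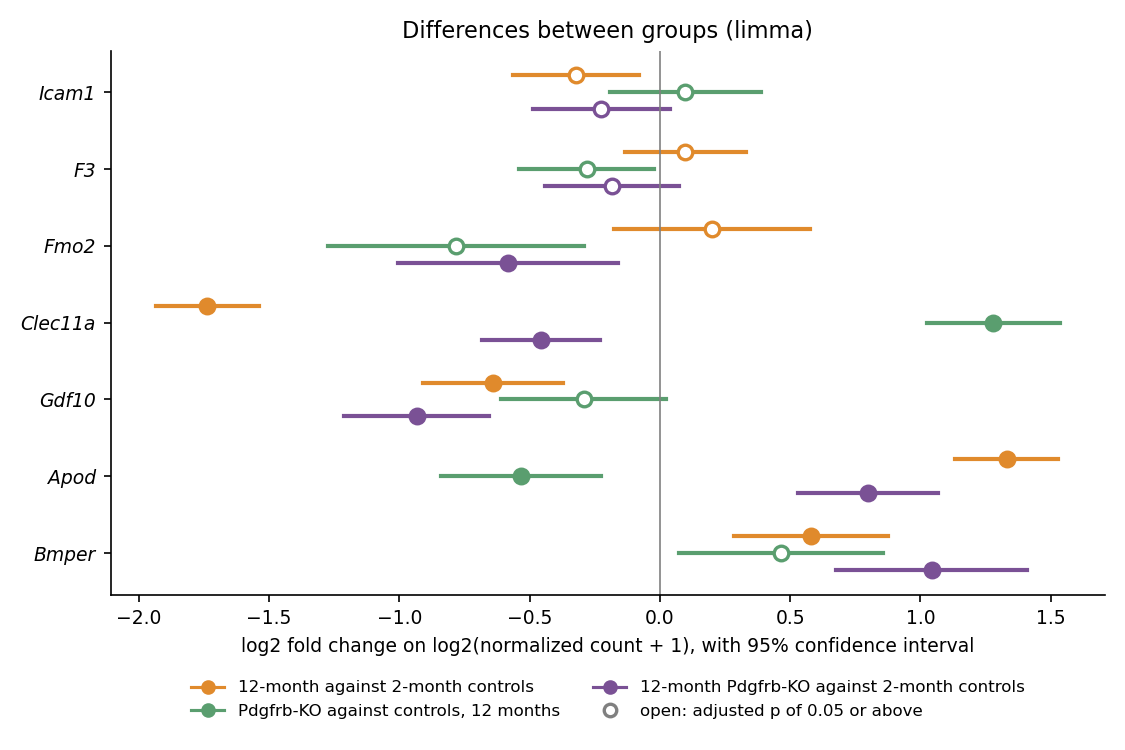
Log2 fold change with its 95% confidence interval (horizontal axis) for each gene in the 3 comparisons, with filled points for an adjusted p under 0.05 (limma). Clec11a stands at -1.74 with age and at 1.28 in Pdgfrβ-KO, while the intervals of Icam1 and F3 stay within -0.56 and 0.39.

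Icam1 encodes the adhesion molecule that leukocyte integrins bind, and besides preadipocytes it is used by endothelial and immune cells. Its values were 10217, 8505, 7946 and 8470 at 2 months, 8258, 6321, 6816 and 6726 in 12-month controls and 8498, 8339, 6606 and 6703 in Pdgfrβ-KO. The 3 ranges overlap, and replicate 1 at 2 months is the highest of all. The means were 8784.5 ± 989 (SD, n = 4), 7030 ± 846 (SD, n = 4) and 7536.5 ± 1021 (SD, n = 4). With age the log2 fold change was -0.32 (standard error 0.111, 95% interval -0.56 to -0.08, adjusted p = 0.0546), just above the threshold, and without 12-month control replicate 1 it was -0.40 with an adjusted p of 0.0252. It also passed with no filter on low values (adjusted p = 0.0361) and when libraries were scaled to stromal genes (-0.81, adjusted p = 0.000598). In Pdgfrβ-KO against age-matched controls it was 0.10 (interval -0.19 to 0.39, adjusted p = 0.673), and against 2-month controls -0.22 (interval -0.49 to 0.04, adjusted p = 0.147). Scaled to stromal genes these were 0.31 (adjusted p = 0.226) and -0.50 (adjusted p = 0.0236).

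Of 11 genes for the integrins that bind ICAM-1 and for related adhesion proteins, 2 rose and 1 fell with age, and 1 rose and 1 fell in Pdgfrβ-KO. Among all genes tested, 22.7% were called with age and 9.41% in Pdgfrβ-KO. Neither this count nor those of the lists below were tested against these shares. Itgax, an integrin subunit of dendritic cells and macrophages, went from 236 to 647 with age (log2 fold change 1.399, adjusted p = 0.000399) and stood at 272 in Pdgfrβ-KO (-1.23, adjusted p = 0.0100). Itgam, the subunit of the myeloid receptor for ICAM-1, rose from 170 to 307 with age and to 862.5 in Pdgfrβ-KO (1.45, adjusted p = 0.00226). Itgal, the subunit of the lymphocyte receptor, was at 3503, 3430 and 3502 in the 3 groups, with adjusted p = 0.772 for age and 0.967 for Pdgfrβ-KO. The 8 macrophage markers moved with Itgam, with 6 of 8 higher with age and 6 of 8 higher in Pdgfrβ-KO. Their summed level ran from 14099 to 20461 at 2 months, from 28048 to 39655 in 12-month controls and from 53661 to 91899 in Pdgfrβ-KO, none of them at 0, and their part in these differences was not tested. Of 11 genes of the NF-kB pathway, a known activator of Icam1, limma called 0 in each comparison, with 0, 0 and 2 at an unadjusted p under 0.05. Nfkbia, its inhibitor and feedback target, was at 18615, 18106 and 18652.

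F3 encodes tissue factor, the membrane receptor that starts coagulation by binding factor VII. Its values were 1176, 1231, 1032 and 891 at 2 months, 1122, 1072, 1188 and 1222 in 12-month controls and 886, 1170, 880 and 876 in Pdgfrβ-KO. In Pdgfrβ-KO, 3 libraries lay below every 12-month control and replicate 2 lay among them. The mean was 1082.5 ± 153 (SD, n = 4), 1151 ± 67.1 (SD, n = 4) and 953 ± 145 (SD, n = 4). The log2 fold change was 0.10 with age (interval -0.13 to 0.33, adjusted p = 0.532). Its sign turned when libraries were scaled to stromal genes, to a called -0.39 (limma, adjusted p = 0.0449). The log2 fold change was -0.28 in Pdgfrβ-KO (interval -0.54 to -0.02, adjusted p = 0.153), and -0.38 with an adjusted p of 0.0474 without replicate 2 of that group. Against 2-month controls Pdgfrβ-KO differed by -0.18 (interval -0.44 to 0.07, adjusted p = 0.226). Scaled to stromal genes these were -0.07 (adjusted p = 0.783) and -0.46 (adjusted p = 0.0229).

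Around tissue factor, 16 genes of its pathway and its inhibitors were listed and 14 could be tested, of which 3 rose and 1 fell with age. F10, the clotting factor X that tissue factor and factor VII activate, went from 43 to 108.5 (log2 fold change 1.31, adjusted p = 0.000425), and F7, the ligand of tissue factor, from 10.25 to 64 (2.35, adjusted p = 0.00279). F2rl1, the receptor PAR2 that the complex can cleave, fell from 451 to 299. In Pdgfrβ-KO 2 rose and 1 fell. F13a1, the clot-crosslinking factor XIII subunit that macrophages also make, stood at 10454.5 ± 1250 (SD, n = 4) against 3679 ± 718 (SD, n = 4) in controls (1.52, adjusted p = 0.000374), and Thbd, the anticoagulant thrombomodulin, at 5362 against 3461. F2r, the main thrombin receptor, fell from 910.5 to 581. Tfpi, the circulating inhibitor of tissue factor, was at 518, 489 and 615 in the 3 groups and passed in neither comparison.

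Fmo2 encodes a flavin-containing monooxygenase, an enzyme that oxidises nitrogen and sulfur in small molecules. It read 2080, 1955, 2319 and 2292 at 2 months, 2308, 2458, 3703 and 1789 in 12-month controls and 1141, 1202, 1639 and 1911 in Pdgfrβ-KO. Libraries of 12-month controls spread the most, with replicate 3 far above the others. The mean was 2161.5 ± 174 (SD, n = 4), 2564.5 ± 811 (SD, n = 4) and 1473 ± 367 (SD, n = 4). Against 2-month controls Pdgfrβ-KO differed by -0.58 on the log2 scale (standard error 0.197, adjusted p = 0.0261), with every Pdgfrβ-KO library under every 2-month library. That call was lost without 2-month replicate 3 (adjusted p = 0.0647), 2-month replicate 4 (0.0626), Pdgfrβ-KO replicate 1 (0.0840) or Pdgfrβ-KO replicate 2 (0.0724), and with limma run without trend and robust fitting (0.0507). Against controls of the same age the difference was -0.78 (interval -1.27 to -0.29, adjusted p = 0.0511), and the groups overlapped because 12-month control replicate 4 lay under the highest Pdgfrβ-KO library. Without that control it was -0.94 (adjusted p = 0.0307), and without Pdgfrβ-KO replicate 4 it was -0.92 (adjusted p = 0.0294). With age Fmo2 differed by 0.20 (interval -0.18 to 0.58, adjusted p = 0.428), and by -0.29 when scaled to stromal genes.

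Of 3 other flavin monooxygenases tested, 1 passed with age, Fmo5, which rose from 262 to 357 (log2 fold change 0.44, adjusted p = 0.0316). Fmo1, which neighbours Fmo2 on the chromosome, was at 1789, 1819 and 1222 in the 3 groups, and Fmo4, also a neighbour, at 41.5, 39.75 and 21. Both fell in Pdgfrβ-KO against 2-month controls (Fmo1 -0.56, adjusted p = 0.0169, and Fmo4 -0.99, adjusted p = 0.0285), and neither passed against 12-month controls (adjusted p = 0.0811 and 0.115).

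Clec11a gave 1417, 1756, 1637 and 1663 at 2 months, 500, 447, 516 and 474 in 12-month controls, and 1243, 1244, 1275 and 966 in Pdgfrβ-KO. No library of any group reached into the range of another, in the order 12-month controls, Pdgfrβ-KO, 2-month controls. The mean was 1618 ± 144 (SD, n = 4), 484 ± 30.3 (SD, n = 4) and 1182 ± 145 (SD, n = 4). The log2 fold change was -1.74 with age (standard error 0.0912, interval -1.93 to -1.54, adjusted p = 3.45e-07) and 1.28 in Pdgfrβ-KO against age-matched controls (standard error 0.116, interval 1.02 to 1.53, adjusted p = 0.000267). Ordered by p, Clec11a was number 10 of all genes tested with age and number 15 in Pdgfrβ-KO. Pdgfrβ-KO remained below 2-month controls, with a log2 difference of -0.46 (standard error 0.106, adjusted p = 0.00321). These calls held under all 19 alternatives tried for each comparison, which include every library left out in turn, and the last difference was -0.735 when scaled to stromal genes.

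Integrin α11β1, made from Itga11 and Itgb1, is a receptor of the CLEC11A protein. Itga11 rose from 420 ± 89.7 (SD, n = 4) at 2 months to 766.5 ± 82.0 (SD, n = 4) in 12-month controls (log2 fold change 0.89, adjusted p = 0.00154). It stood at 398.5 ± 41.6 (SD, n = 4) in Pdgfrβ-KO (-0.94, adjusted p = 0.00111), so its direction was opposite to that of Clec11a in both comparisons. Itgb1, shared by many integrins, was at 12629, 13045 and 11921, with adjusted p = 0.836 for age and 0.580 for Pdgfrβ-KO.

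Gdf10 encodes BMP3b, a secreted member of the TGF-beta family. It read 4101, 4904, 5038 and 4626 at 2 months, 2719, 2947, 3839 and 2577 in 12-month controls and 2028, 2722, 2473 and 2576 in Pdgfrβ-KO. All 12-month libraries lay under all 2-month ones, and the 12-month groups overlapped. The mean was 4667 ± 415 (SD, n = 4), 3020.5 ± 567 (SD, n = 4) and 2450 ± 299 (SD, n = 4). The log2 fold change was -0.64 with age (standard error 0.124, adjusted p = 0.00386) and -0.93 for Pdgfrβ-KO against 2-month controls (standard error 0.131, adjusted p = 9.24e-05), both called under all 19 alternatives. Between the 12-month groups it was -0.29 (interval -0.61 to 0.02, adjusted p = 0.220). Scaled to stromal genes, the difference was -1.13 with age and -0.08 between the 12-month groups.

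Of 10 genes for relatives and receptors of BMP3 and GDF10, 1 rose and 1 fell with age, and 1 fell in Pdgfrβ-KO. Bmp3, the closest relative of Gdf10, went the other way from it with age, from 80.25 ± 23.6 (SD, n = 4) to 297.5 ± 97.5 (SD, n = 4), a log2 fold change of 1.87 (adjusted p = 0.000628). It was at 95 ± 9.13 (SD, n = 4) in Pdgfrβ-KO (-1.58, adjusted p = 0.00205). Smad2, an intracellular effector of this family, fell from 1129.5 to 918 with age (-0.30, adjusted p = 0.0381). Tgfbr3, a co-receptor of the family, was at 2688, 3070 and 2967 and passed in neither comparison.

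Apod gave 2141, 1777, 2108 and 1898 at 2 months, 5183, 5285, 4855 and 4584 in 12-month controls and 3182, 4518, 2879 and 3363 in Pdgfrβ-KO. Here too the 3 groups did not overlap, with Pdgfrβ-KO between the controls, though its replicate 2, at 4518, came close to the lowest 12-month control, at 4584. The mean was 1981 ± 173 (SD, n = 4), 4977 ± 320 (SD, n = 4) and 3485.5 ± 717 (SD, n = 4). With age the log2 fold change was 1.33 (standard error 0.0905, adjusted p = 3.05e-06), number 23 of all genes tested by p, and Pdgfrβ-KO stood 0.80 above 2-month controls (standard error 0.125, adjusted p = 0.00022). These calls held under all 19 alternatives, with 0.84 and 0.52 when scaled to stromal genes. In Pdgfrβ-KO against age-matched controls it was -0.53 (standard error 0.140, interval -0.84 to -0.23, adjusted p = 0.0374), and 10 of 19 alternatives called it. That call was lost when any library but Pdgfrβ-KO replicate 2 was left out, with adjusted p from 0.0551 without Pdgfrβ-KO replicate 4 to 0.103 without Pdgfrβ-KO replicate 1. Without Pdgfrβ-KO replicate 2 it was 0.00745. It was also lost when scaled to stromal genes (-0.32, adjusted p = 0.152).

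Of 7 lipocalins and other lipid carriers 6 could be tested, and 1 rose and 1 fell with age. Apoe, the apolipoprotein E gene that macrophages use strongly, went from 40328 to 59059 (log2 fold change 0.55, adjusted p = 0.00584) and to 110903 in Pdgfrβ-KO (0.86, adjusted p = 0.0273). Lepr, the leptin receptor, which has been described to bind apolipoprotein D, fell from 382 to 252 with age (-0.63, adjusted p = 0.0250). Lcn2, another lipocalin, was at 96.25, 67 and 64 and did not pass in either comparison.

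Bmper encodes a secreted protein that binds BMPs and modulates their signal. It read 466, 640, 663 and 553 at 2 months, 879, 960, 944 and 684 in 12-month controls and 1003, 1577, 1353 and 923 in Pdgfrβ-KO. The 2-month libraries lay below all others, and the 12-month groups overlapped through Pdgfrβ-KO replicate 4. The mean was 580.5 ± 89.8 (SD, n = 4), 867 ± 127 (SD, n = 4) and 1214 ± 306 (SD, n = 4). With age the log2 fold change was 0.58 (standard error 0.136, interval 0.28 to 0.87, adjusted p = 0.0106), and scaled to stromal genes it was 0.09 (adjusted p = 0.605). Pdgfrβ-KO stood 1.04 above 2-month controls (standard error 0.172, adjusted p = 0.000308). Against 12-month controls the difference was 0.46 (interval 0.07 to 0.86, adjusted p = 0.126), and scaled to stromal genes it was 0.67 (adjusted p = 0.0149).

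Of 16 BMP ligands, receptors and effectors, 1 rose and 3 fell with age. Smad7, an inhibitor of the pathway that the signal itself induces, fell from 5137 ± 593 (SD, n = 4) to 2711 ± 419 (SD, n = 4), a log2 fold change of -0.93 (adjusted p = 0.000421), and Smad6, of like function, from 534 to 391. In Pdgfrβ-KO 4 of 15 fell. The ligand genes were Bmp4, from 374.5 to 148.5 (-1.32, adjusted p = 0.00440), Bmp6, from 1473 to 857 (-0.76, adjusted p = 0.00883), and Bmp5, from 70 to 31.75 (-1.13, adjusted p = 0.0298), and Acvr1, a receptor, fell from 620 to 441.5. Among the other secreted or membrane-bound BMP regulators, Crim1, which encodes a BMP-binding membrane protein, fell with age from 3354 to 2537.5 (-0.41, adjusted p = 0.0319). Chrdl1, a chordin-like BMP antagonist, fell from 1748 to 1238 (-0.53, adjusted p = 0.0430). Fst, which encodes the activin-binding follistatin, fell in Pdgfrβ-KO from 1031 to 645.

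Ratios of members within a library do not depend on how libraries were scaled. The ratio of Apod to Clec11a was 1.01 to 1.51 at 2 months, 9.41 to 11.8 in 12-month controls and 2.26 to 3.63 in Pdgfrβ-KO. The ratio of Bmper to Gdf10 was 0.114 to 0.132, 0.246 to 0.326 and 0.358 to 0.579, so it was highest in the Pdgfrβ-KO group, whereas Apod to Clec11a was highest in 12-month controls. In both ratios the 3 groups were apart, which describes genes chosen because they moved in opposite directions with age. The ratio of F3 to Icam1 was 0.105 to 0.145, 0.136 to 0.182 and 0.104 to 0.140, and the groups overlapped. The summed level of the 7 genes ran from 20393 to 21598, 18056 to 21861 and 17105 to 20772, and there the groups overlapped.

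**Figure D3:**
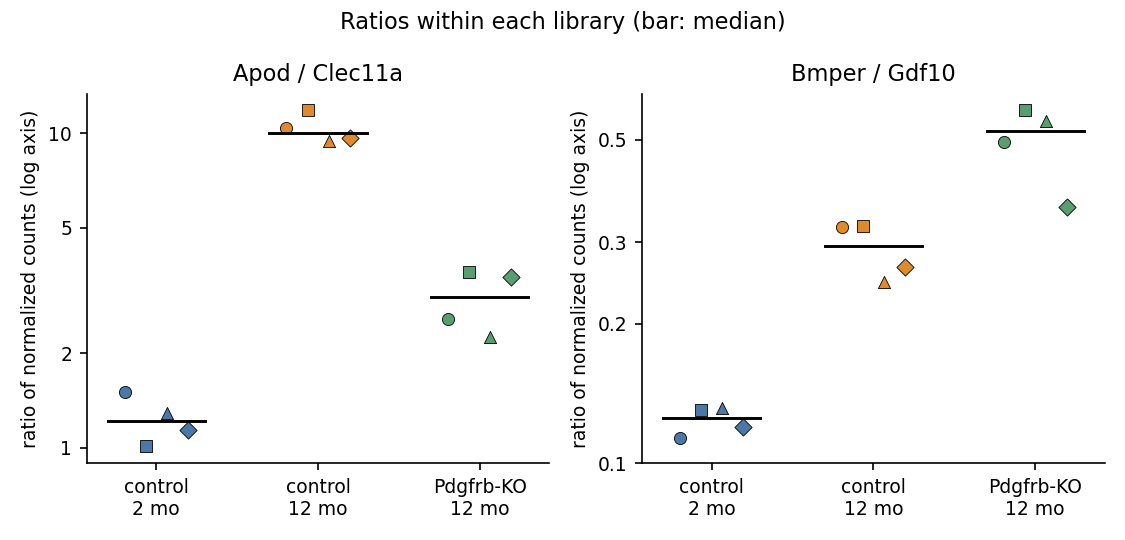
Ratio of the normalized counts of Apod to Clec11a (left) and Bmper to Gdf10 (right) in each library, on log axes, with the median of each group as a bar. The medians of Apod to Clec11a are 1.215, 10.02 and 3.021, and those of Bmper to Gdf10 are 0.125, 0.294 and 0.521.

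Levels of different genes were compared only per kilobase of annotated exon. At 2 months Icam1 led, at 2015 normalized counts per kilobase, followed by Gdf10 at 896, Apod at 769, Clec11a at 543, F3 at 428, Fmo2 at 385 and Bmper at 120. The ranges of Gdf10 and Apod overlapped there, as did those of Clec11a and F3 and of F3 and Fmo2. In 12-month controls Apod came first at 1931 and Clec11a last at 163, next to Bmper at 179, and the ranges of Apod and Icam1 (1612) overlapped, as did those of Clec11a and Bmper and those of Fmo2 with Gdf10 and F3. In Pdgfrβ-KO the order was Icam1 at 1729, Apod at 1352.5, Gdf10 at 470, Clec11a at 397, F3 at 377, Fmo2 at 263 and Bmper at 251, with overlap between Icam1 and Apod and between Fmo2 and Bmper. There Clec11a overlapped with Gdf10, F3, Fmo2 and Bmper, and Gdf10 also with F3, so the order within these pairs lies within their spread. The ranges of Gdf10 and F3 lay wholly above those of Fmo2 and Bmper.

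Other genes used to mark these populations were counted from fixed lists. Of 10 further committed preadipocyte genes, 2 rose and 1 fell with age and 0 were called by limma in Pdgfrβ-KO (1 at an unadjusted p under 0.05). Cebpa, an adipogenic transcription factor, rose from 1105 to 1736.5 (log2 fold change 0.65, adjusted p = 0.00113), and Dlk1, a preadipocyte protein that restrains differentiation, fell from 236 to 127.5 (-0.88, adjusted p = 0.000552). Fabp4, the fatty acid binding protein gene, was at 61460, 69008 and 83834 and passed in neither. Of 12 other regulatory stromal genes, 4 rose and 4 fell with age. Inmt, a methyltransferase gene, rose from 2626 to 6876 (1.39, adjusted p = 1.1e-05), Cygb, the cytoglobin gene, from 3015 to 5502, and Cpe, carboxypeptidase E, fell from 2943 to 1857. In Pdgfrβ-KO 1 rose and 2 fell. Agt, angiotensinogen, rose from 251 to 591 (1.18, adjusted p = 0.00667) after being lower with age (385 at 2 months, adjusted p = 0.00348), and Igfbp3, a binding protein of insulin-like growth factors, fell from 2351.5 to 1096.5 (-1.09, adjusted p = 0.00238).

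Most interstitial progenitor genes, and most of those used by stroma in general, rose with age. Of 11 interstitial genes 7 rose with age and 4 fell in Pdgfrβ-KO, and the rest did not pass. Pi16, a peptidase inhibitor that marks these cells, read 7669 ± 2704 (SD, n = 4), 15710 ± 3186 (SD, n = 4) and 7160.5 ± 1166 (SD, n = 4) in the 3 groups. Anxa3, of the same list, read 2950.5, 5881 and 8091.5, and was not called between the 12-month groups. Against 2-month controls, 2 of 11 interstitial genes were called higher in Pdgfrβ-KO and 0 lower. Of 8 pan-stromal genes 5 rose with age and 3 fell in Pdgfrβ-KO, among them Dcn, the decorin gene, at 27194, 50708 and 31734. Pdgfra, of the same list, was at 2985, 4368 and 4993, and was not called between the 12-month groups. Against 2-month controls, 3 of the 8 were called higher in Pdgfrβ-KO and 0 lower. The summed level of the 8 genes was 165429 to 202487 at 2 months, 304886 to 428355 in 12-month controls and 227127 to 335672 in Pdgfrβ-KO, and none was at 0. Scaling libraries to these 8 genes shifted the median of all genes by -0.49 with age, by 0.21 in Pdgfrβ-KO and by -0.28 for Pdgfrβ-KO against 2-month controls. The share of calls that were higher was then 5.4% with age against 49.7% as deposited, 85.1% against 52.6% in Pdgfrβ-KO, and 21.6% against 49.5% for Pdgfrβ-KO against 2-month controls.

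**Figure D4:**
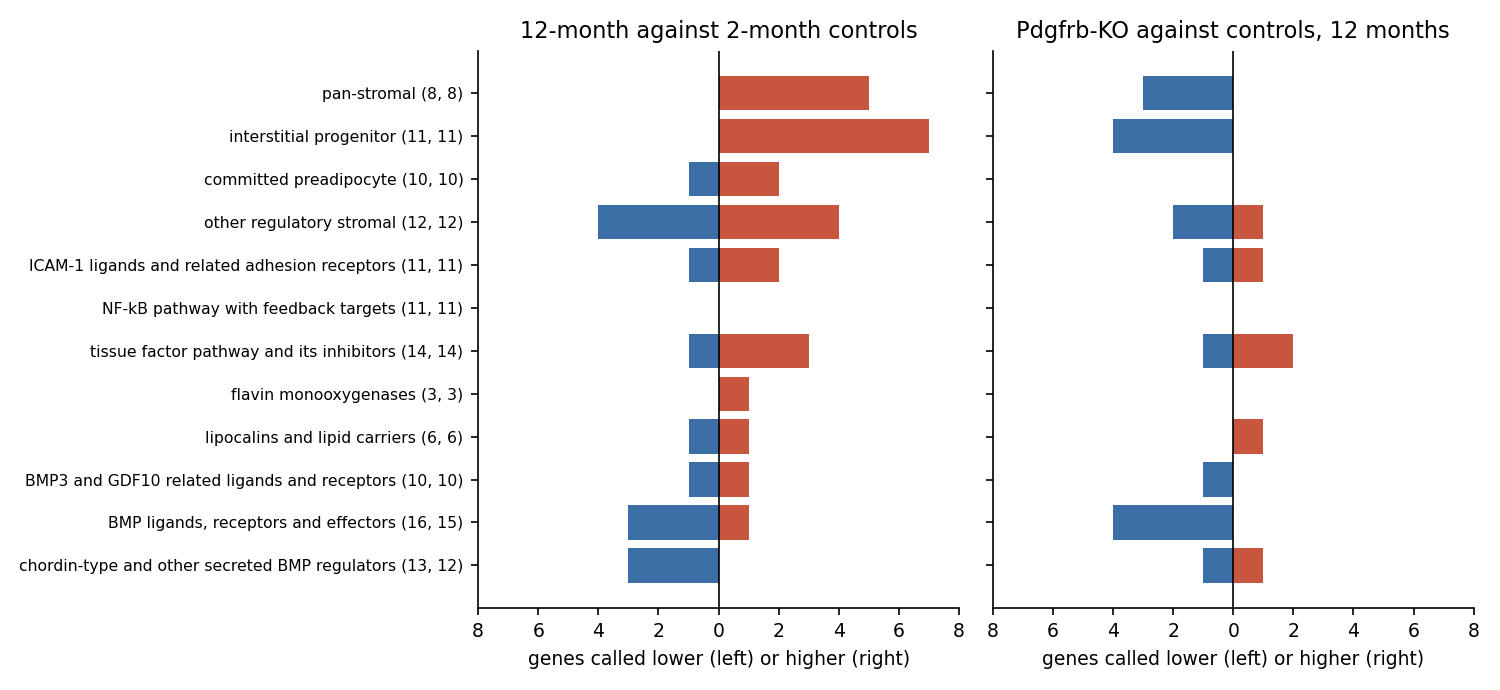
Number of genes in each list called higher (right of 0) or lower (left of 0) by limma, with age on the left and in Pdgfrβ-KO on the right, and in brackets the genes tested in each. Interstitial progenitor genes show 7 higher with age and 4 lower in Pdgfrβ-KO, and the NF-kB list shows 0 in both. The share called among all genes tested was 22.7% with age and 9.41% in Pdgfrβ-KO.

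Markers of other cells in the SVF also moved, and their part in the values of the 7 genes was not tested. Of 7 mural genes 5 fell and 1 rose with age. In Pdgfrβ-KO limma called 0 of them (4 at an unadjusted p under 0.05). Their summed levels were 35684 to 40797, 22606 to 40251 and 18364 to 21575. All 6 Schwann cell genes fell with age, from 9526 to 12401 down to 4150 to 4766, and stood at 3323 to 4994 in Pdgfrβ-KO. Of 7 blood endothelial genes 2 fell with age, and 0 were called in Pdgfrβ-KO by limma (2 at an unadjusted p under 0.05), with sums of 61815 to 86691, 43929 to 76116 and 32990 to 49106. The 4 skeletal muscle genes fell in Pdgfrβ-KO, from 1818 to 4547 down to 380 to 1088. Of 5 genes of mature adipocytes 4 rose with age and 1 fell in Pdgfrβ-KO. Together they summed to 736 to 883, 1297 to 2200 and 949 to 1726. No marker in these 5 lists was at 0 throughout a group. Mast cell genes rose with age in 5 of 5, with sums of 2035 to 3088, 4395 to 8542 and 6847 to 11480, and plasma cell genes in 3 of 3 tested, with sums of 8962 to 13115, 34148 to 49942 and 22997 to 61260. Neutrophil genes rose in Pdgfrβ-KO in 3 of 3 tested, with sums of 242 to 311, 194 to 400 and 781 to 1522. The skin epithelium genes Krt5 and Krt14 were at 0 in all Pdgfrβ-KO libraries, and the 4 genes of that list summed to 16 to 104, 15 to 986 and 0 to 10. The remaining 6 lists were lymphatic endothelial, B, T and erythroid cells, glandular epithelium and mesothelium. Of 3 erythroid genes, 2 were called higher with age and 1 higher in Pdgfrβ-KO against 12-month controls. Of 4 lymphatic endothelial genes, 1 was lower with age and 1, Lyve1, higher in Pdgfrβ-KO (from 945 to 2511). Prox1, Flt4 and Mmrn1 had lower means in Pdgfrβ-KO than in 12-month controls, without a call. The other calls in these 2 comparisons were B cell (1 of 4 higher in Pdgfrβ-KO), T cell (1 of 5 lower with age) and glandular epithelium (1 of 4 lower in Pdgfrβ-KO).

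The genes whose pattern was most like each member were found by Pearson's r of log2(value + 1) over the 12 libraries, among 11070 genes with a mean of at least 100. The libraries share group differences, so r is also given for deviations from the group means, as a description. Clec11a was most like Col1a2 (r = 0.98, deviations 0.70) and Col1a1 (r = 0.975, deviations 0.59), the genes of type I collagen. Col1a2 stood at 245887 ± 14731 (SD, n = 4), 101080 ± 6242 (SD, n = 4) and 191056 ± 34867 (SD, n = 4), the same order of groups as Clec11a. Bmper was most like Ptges, a prostaglandin E synthase gene (r = 0.959, deviations 0.866), and Csf1, the macrophage growth factor gene (r = 0.956, deviations 0.827). Gdf10 was most like Blzf1 (0.975, deviations 0.869) and Lgalsl (0.967, deviations 0.935), and Fmo2 most like Fam129a (0.933, deviations 0.856) and Iqsec2 (0.932, deviations 0.901). For Apod these were Fam20c (0.954, deviations 0.365) and Gapdh (0.954, deviations 0.508), a glycolytic gene often used as a reference, which was at 10034.5 ± 196 (SD, n = 4), 13875.5 ± 187 (SD, n = 4) and 12760.5 ± 828 (SD, n = 4). The likeness was lower for Icam1 (Hdac5, 0.892, deviations 0.81, and Zc3h10, 0.862, deviations 0.777) and F3 (Trim36, 0.84, deviations 0.783, and Odc1, 0.806, deviations 0.681). Among the members themselves, Clec11a and Apod had r = -0.887 over the libraries and -0.191 for deviations, while Fmo2 and Gdf10 had 0.57 and 0.71.

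**Figure D5:**
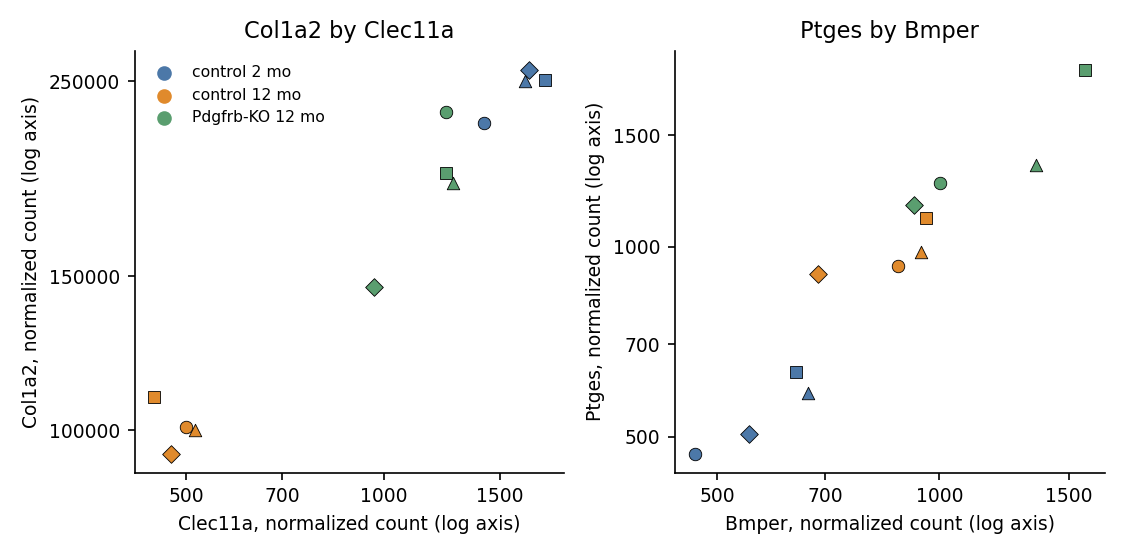
Normalized count of Col1a2 against Clec11a (left) and of Ptges against Bmper (right), on log axes, with each point a library, colours for the groups and shapes for replicate numbers. On the left the 12-month controls sit apart at the lower left, and on the right the 2-month controls do, with r of 0.98 and 0.959 over the 12 libraries.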

How the data were processed

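The samples were 12 SVF libraries of male mice, in 3 groups of 4. The authors trimmed reads (Trim Galore 0.6.0, cutadapt), checked them (FastQC) and aligned them to GRCm38 (STAR 2.7.0e), per the labels. The deposited values are a score, namely counts scaled by DESeq2 1.26.0 size factors and then rounded by the authors, so no count model was run. A table of both control ages and a table of both 12-month groups were joined by identifier: 55535 genes are in both, the shared controls were equal in 100% of genes, and 2 rows found in a single table and 4 blank lines were left out. No further column held values of a sample (0 in number). Counts before scaling were estimated from the gaps that division leaves in low values, and for 2 libraries a factor near 2 times larger was almost as likely.

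Values were tested as log2(value + 1), which understates changes of low genes, with limma 3.58.1 in R 4.3.3 (trend, robust, two-sided, Benjamini-Hochberg over all genes tested, threshold 0.05), for genes with at least 10 in at least 4 libraries. Age and Pdgfrβ-KO were each fitted on 8 libraries, and Pdgfrβ-KO against 2-month controls on all 12. The method was tested on simulated data. Other tables and plots used Python 3.11.15, pandas 2.3.3 and matplotlib 3.10.9. Identifiers matched GENCODE vM21 for 55449 genes, and promoters came from RefSeq (GRCm38.p6) for all 7 members. Members and lists were chosen with earlier results of these data known. From each list the text names at most 4 called genes, those of lowest p, and at most 2 others, and for each member the 2 most alike genes. Alternatives were pseudocounts of 0.5 and 5, no filter, a mean of at least 50, median-of-ratios and quantile scaling, scaling to 8 stromal genes, limma without trend and robust fitting, library weights, the replicate block, another set of libraries in the fit, and each library left out. Some genes of the lists are not reported here.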

Additional observations from a re-analysis of the deposited data

Results flagged for a closer look

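Of 21 sets of 4 libraries (7 genes in 3 groups), 2 had a library far from the other 3, where chance alone gives about 1 in 20. F3 in Pdgfrβ-KO had its highest library, replicate 2, at 1170, and the others between 876 and 886. Clec11a in Pdgfrβ-KO had its lowest library, replicate 4, at 966, and the others between 1243 and 1275, and this library was still above every 12-month control.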

How the results depend on the processing

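Of 399 alternative values for single members, 367 kept their direction and side of the threshold, 15 lost the call, 15 gained it and 2 changed sign. The sign changes were F3 (-0.39) and Fmo2 (-0.29) with age, both when scaled to stromal genes, which by construction removes the rise of those genes. That scaling called 9035 genes with age and 2375 in Pdgfrβ-KO, in place of 3727 and 1538. With a library left out, the genes called ranged from 2356 to 3961 with age and from 855 to 1875 in Pdgfrβ-KO. The numbers were lowest without 2-month replicate 4 (2356) or 3 (2454) for age, and without 12-month control replicates 3 (855), 2 (884) or 1 (894) or Pdgfrβ-KO replicate 1 (887). The fit of all 12 libraries called 2599 genes in Pdgfrβ-KO. Of the members, 1 was called in Pdgfrβ-KO without trend and robust fitting, and 1 to 3 with a library left out. Replicate numbers did not pair the libraries: deviations of equal numbers correlated between -0.196 and 0.122 for the controls and between -0.005 and 0.344 for the 12-month groups, and 2 and 3 of 8 libraries were most like their own number. With the replicate block the calls were 3116 genes with age and 2379 in Pdgfrβ-KO, where 4 members passed (Fmo2 and Bmper added), and 5 members passed with age (Icam1 added). The cause of these changes was not tested. The median of the estimated depth was lowest in the Pdgfrβ-KO group, and the part of depth in the Pdgfrβ-KO differences was not tested. The estimate is uncertain for Pdgfrβ-KO replicate 4 and 12-month control replicate 1, where a factor near 2 times larger was almost as likely. Every member was far above the filter in each library.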

Other observations

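Within 500 kb of Clec11a, a window chosen after the values were seen, 4 of 19 tested genes were called in Pdgfrβ-KO, all higher: the kallikrein genes Klk1b21, Klk1b24 and Klk1, and the protease gene Napsa. The kallikreins are near-identical copies, so how reads were divided among them is uncertain. With age 5 of 18 were called there, 2 higher and 3 lower. Around Icam1, 7 of 32 were called with age and 0 of 33 in Pdgfrβ-KO. Bmper had a single tested neighbour, which passed in neither. Gdf10 had 2 of 12 called in Pdgfrβ-KO, Gdf2 and Anxa8, both lower. F3 had 3 of 12 called there, Tmem56, Arhgap29 and Abca4, all lower. Fmo2 had 1 of 9 and Apod 1 of 8 called in Pdgfrβ-KO, also lower. Over all genes tested, 22.7% were called with age and 9.41% in Pdgfrβ-KO. The counts in these windows were not tested against those shares.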
